A study of Rattus norvegicus with 24 samples.

Results

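The lowest estradiol dose given to female rats was compared with dose 0, over 3 arrays at 0.1 µg/kg/day (replicates 4, 5 and 6) and 3 arrays at 0 (replicates 1, 2 and 3). These 6 arrays are part of a series of 24, with 3 for each of 4 doses in each sex and titles that name the group. The animals were Sprague-Dawley rats of no stated genetic change. All of them, those at dose 0 included, carried an osmotic pump under the skin from weaning on postnatal day 21 to day 33, when the abdominal glands were frozen; 17β-estradiol was the agent at every dose above 0. The design text describes pumps, while the labels list the dose under diet. Whole gland RNA was hybridised to Affymetrix arrays, with no word in the labels on whether an array is 1 animal or a pool. The p-values therefore rest on array-to-array spread alone, which may be technical in part.

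The gland at this age is a branching tree of epithelial ducts inside a pad of fat. Estradiol, the main ovarian estrogen, acts through the estrogen receptor in part of the ductal luminal cells, which release the growth factor amphiregulin and so drive duct growth through receptors in the neighbouring stroma. Fat cells also carry estrogen receptor, and estrogen is known to lower lipid synthesis in white fat. In RNA of a whole gland, fewer cells of a type and less RNA per cell cannot be told apart.

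The values are differences on a log scale, taken as log2, with each probe set centred close to 0 within each sex: the median over the 12 female arrays lay within 0.1 of 0 in 94.6% of probe sets. No level of a gene is therefore kept, the tissue and sex labels could not be checked against marker levels, and every value below is relative to the middle of the female arrays. Differences between doses within females are kept, and a difference of 1 is a doubling if the log base is 2.

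Both groups hold an array that stands apart. The spread of replicate 4 at 0.1 over all probe sets (SD 0.485) was the widest of the 6 arrays, against 0.186 to 0.305 in the other 5. The mean of 37 skeletal muscle genes was 2.26 in replicate 4, -0.06 in replicate 5 and 0.11 in replicate 6, and -3.07, 0.18 and -1.41 in the 3 controls. In replicate 4 the B cell list (-1.80), the T and NK cell list (-1.56), the luminal epithelial list (-0.64) and the milk protein list (-0.999) had the lowest means of the 6 arrays. Control replicate 1 carried a mean of 2.42 over 20 hepatocyte genes, against -0.04 and -0.05 in the other controls and -0.12, -0.58 and -0.48 at 0.1. The difference between the 3′ and 5′ control probe sets for actin, a measure of how intact the RNA is, was 0.02, 0.06 and 0.03 in the controls and -0.36, -0.07 and -0.15 at 0.1. The same measure for GAPDH was 0.09, 0.05 and 0.04 in the controls and 0.05, -0.03 and 0.00 at 0.1. For hexokinase it was -0.03, 0.18 and -0.09 against 0.16, 0.00 and -0.14. GAPDH and hexokinase thus overlapped between the groups, and actin did not.

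**Figure D1:**
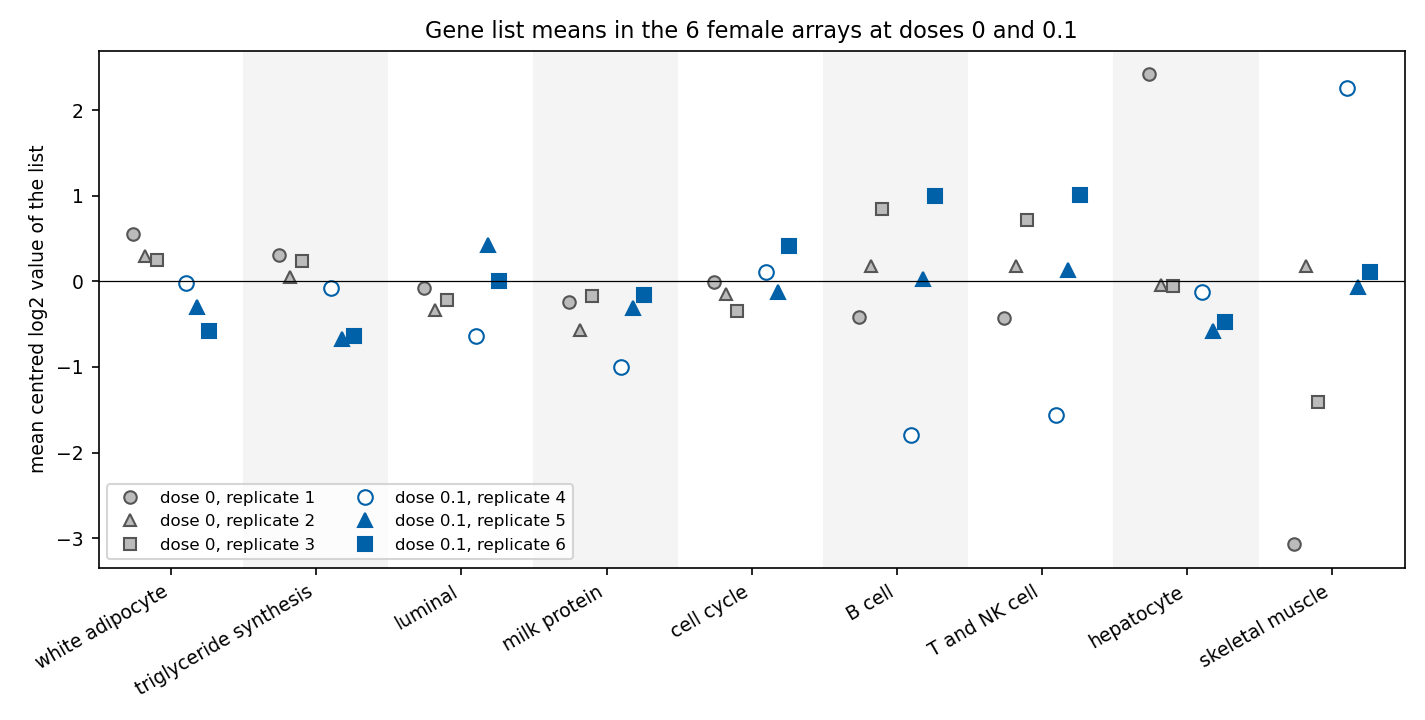
Mean centred log2 value (y axis) of 9 gene lists (x axis) in each of the 6 female arrays; grey symbols are dose 0, blue symbols are dose 0.1 µg/kg/day and the open blue circle is replicate 4. The white adipocyte and triglyceride synthesis lists sit lower in all 3 arrays at 0.1, while replicate 4 lies at one end of the muscle, B cell and T cell lists.

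With all 3 arrays kept, fat cell genes such as Fabp4, Plin1 and Adrb3 were lower at 0.1 in every array, but no single gene passed the test. In limma's moderated test over 31042 probe sets, 0 (0%) had a Benjamini-Hochberg adjusted p under 0.05, and the smallest adjusted p was 0.0652. An unadjusted p under 0.05 was found for 3083 (9.93%), of which 1184 (3.81%) were higher and 1899 (6.12%) lower at 0.1. If no probe set differed, 1550 would be expected on average. Such counts vary widely, and dose 1 against dose 0 gave 847 in the same fit, so the excess is no measure beyond chance. The 3 arrays at 0.1 all lay above the 3 controls in 1529 probe sets (4.93%) and all below them in 2042 (6.58%). Without replicate 4 the number past the adjusted threshold was 204, without replicate 5 it was 21 and without replicate 6 it was 2, and it was 0 without any 1 of the controls. Weighting the arrays by their agreement gave 1738 (720 higher, 1018 lower), with weights of 0.159 for replicate 4, 3.484 for replicate 5 and 0.451 for replicate 6, so that fit leaned on a single array.

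The genes with the smallest p among those whose arrays did not overlap are given first as values. Fabp4, the fatty acid carrier protein of fat cells, was 0.32, 0.17 and 0.24 in the controls and -0.16, -0.23 and -0.33 at 0.1. All 3 treated arrays, replicate 4 included, lay below every control. The difference was -0.48 ± 0.08 (SE; limma adjusted p = 0.0652), with a 95% interval of -0.66 to -0.31. Gstz1, an enzyme of tyrosine breakdown, was 0.84, 0.46 and 0.32 against -0.15, -0.20 and -0.51, a difference of -0.83 ± 0.13. Slc1a5, a glutamine carrier, was 0.57, 0.42 and 0.51 against -0.21, -0.17 and -0.29, a difference of -0.72 ± 0.13. In both genes the groups were apart and replicate 4 lay with replicates 5 and 6. Mcam, an adhesion molecule of blood vessel walls (-0.69 ± 0.11), Plaat3, a phospholipase of fat cells (-0.53 ± 0.09), and Hipk2, a nuclear kinase (-0.56 ± 0.10), were also lower in all 3 arrays. The adjusted p of these 5 was 0.0652 too.

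Among higher genes, Adamts8, a secreted metalloprotease, was -0.27, -0.73 and -0.31 in the controls and 0.89, 0.61 and 0.74 at 0.1. The groups did not overlap and replicate 4 was the highest array, with a difference of 1.18 ± 0.18 (limma adjusted p = 0.0652). Col12a1, a collagen that binds along fibrils (0.58 ± 0.11), Smoc2, a matrix protein (0.76 ± 0.15), Lpar1, a receptor for lysophosphatidic acid (0.52 ± 0.10), and Wnt11, a secreted signalling protein (0.37 ± 0.07), were higher in all 3 arrays as well. Their adjusted p lay between 0.0652 and 0.0770, so none of these passed the threshold.

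Without replicate 4, more genes fell than rose, and genes of the fat cell were among those that fell. Of 31042 probe sets, 204 (0.657%) passed in limma, 24 of them higher (0.0773%) and 180 lower (0.58%), from 18 and 124 named genes, and 3289 (10.6%) had an unadjusted p under 0.05. At a difference of at least 1 these were 9 and 48 probe sets. This comparison of 2 arrays with 3 draws its error from all 23 arrays: with the 2 groups alone, or with the 11 remaining female arrays alone, 0 probe sets passed. Leaving out control replicate 1, 2 or 3 gave 9, 37 or 34, and leaving out replicate 6 gave 10, whereas leaving out replicate 5 gave 163. The array left out was then set against dose 1, whose arrays are in neither group. Dose 1 is not an even reference: its replicate 9 had a muscle mean of 2.01 and a triglyceride synthesis mean of -0.76. Its replicate 7 had a hepatocyte mean of 0.81. Replicate 4 lay below all 3 female arrays at dose 1 in 30 of the 180 lower probe sets (16.7%), against 36.1% of all probe sets. It lay above them in 4 of the 24 higher ones (16.7%), against 35.5% of all. Dose 1 is a treated group as well, with 20 of 21 white adipocyte genes lower than at dose 0 (median -0.27). Replicate 4 also had a wide spread (SD 0.485). These shares therefore cannot tell whether replicate 4 differed from dose 0 as replicates 5 and 6 did.

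All 21 measured members of the 22 white adipocyte genes were lower at 0.1, with and without replicate 4, and in 18 of them the 3 arrays at 0.1 lay below the 3 controls, against 6.58% of all probe sets. Their median difference was -0.67 with all arrays and -0.80 without replicate 4, while the median over the 20826 probe sets with 1 gene was -0.00 and 0.01. None of the 21 passed with all arrays, where 17 were lower at an unadjusted p under 0.05, against 6.12% of all probe sets. Without replicate 4, 11 of 21 fell, against 0.58% of all probe sets, and 10 did not pass. The 11 are Adipoq, Plin1, Fabp4, Pparg, Slc2a4, Aqp7, Adrb3, Mgll, Rbp4, Gpd1 and Lgals12.

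Plin1, the protein coat of the fat droplet, was 0.69, 0.52 and 0.35 in the controls and 0.03, -0.49 and -0.72 at 0.1. Every array at 0.1 was below every control, with replicate 4 nearest to them. The difference was -0.92 ± 0.17 with all arrays (limma adjusted p = 0.0652) and -1.13 ± 0.15 without replicate 4 (limma adjusted p = 0.00974), a 2.18-fold fall. Adrb3, the β3-adrenergic receptor through which noradrenaline starts fat breakdown, was 1.07, 0.73 and 0.82 against 0.02, 0.06 and -0.79. Its groups did not overlap, and it fell by 1.23 on the log2 scale without replicate 4 (limma adjusted p = 0.0247). Pparg, the transcription factor that makes and maintains fat cells, was 0.71, 0.33 and 0.40 against -0.01, -0.14 and -0.74. It was lower in all 3 arrays and fell by 0.92 without replicate 4 (limma adjusted p = 0.0384). Adipoq, the hormone adiponectin, was 0.45, 0.11 and 0.02 against -0.11, -0.27 and -0.55, with a difference of -0.50 ± 0.13 over all arrays and -0.60 ± 0.14 without replicate 4 (limma adjusted p = 0.0469).

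Slc2a4, the glucose carrier that insulin moves to the surface of fat and muscle cells, was split between replicate 4 and the other arrays at 0.1. It was 0.41, 0.33 and 0.24 in the controls, 0.95 in replicate 4, and -1.07 and -0.70 in replicates 5 and 6. Replicate 4, the array with the highest muscle genes, was thus above all controls and the other 2 below all of them. The difference was -0.60 ± 0.33 with all arrays and -1.21 ± 0.21 without replicate 4. The part of muscle RNA in its value was not tested. Aqp7, the glycerol channel (-0.88), Gpd1, which makes glycerol phosphate (-0.97), Mgll, the last lipase of triglyceride breakdown (-0.84), Rbp4, the retinol carrier (-1.08), and Lgals12, a galectin of the fat droplet (-1.09), fell without replicate 4. The lipases Lipe (-0.75) and Pnpla2 (-0.91) did not pass (limma adjusted p = 0.0597 and 0.0530), nor did Lpl (-0.55), Cebpa (-0.58), Cd36 (-0.35) or Lep, the hormone leptin (-0.50).

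**Figure D2:**
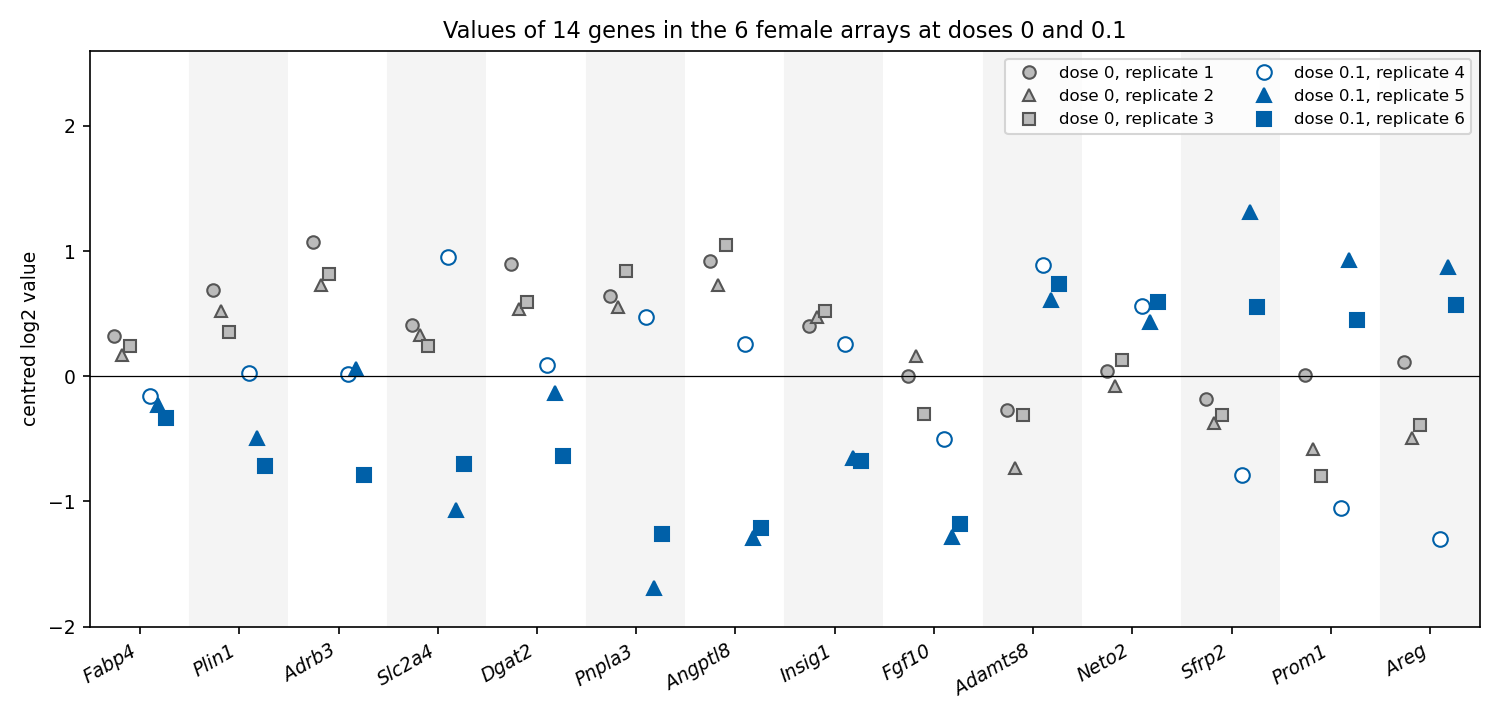
Centred log2 value (y axis) of 14 genes (x axis) in each of the 6 female arrays; grey symbols are dose 0, blue symbols are dose 0.1 µg/kg/day and the open blue circle is replicate 4. Fabp4, Plin1, Adrb3 and Fgf10 are lower in all 3 arrays at 0.1, whereas replicate 4 lies apart from replicates 5 and 6 in Slc2a4, Pnpla3, Angptl8, Sfrp2, Prom1 and Areg.

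The calls within this list rested on single arrays. Without control replicate 1, 2 or 3 the 11 became 1, 3 or 3, without replicate 5 they became 7 and without replicate 6 they became 0, and 0 passed when the 2 groups were fitted alone. Muscle and liver genes moved with the group: muscle means ran from -3.07 to 0.18 in the controls and from -0.06 to 2.26 at 0.1, with 36 of 37 members higher, and hepatocyte means from -0.05 to 2.42 and from -0.58 to -0.12, with 20 of 20 lower. With the muscle mean as a covariate and replicate 4 left out, the median of the 21 was -0.77 and 13 passed. Without the arrays of high hepatocyte markers, control replicate 1 among them, the median was -0.73 with 21 of 21 lower, and 0 passed. The part of the 3′ to 5′ difference of actin in these values was not tested.

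Promoters of genes that fell without replicate 4 are shown for Plin1, Plaat3 and Nsdhl, with that of Fgf10, described further on. Each is the 250 bases before the gene's start in RefSeq (build GRCr8), 5′ to 3′ on the gene's own strand: Plin1 at chr1:143086149-143086398 on the minus strand, and on the plus strand Plaat3 at chr1:214211629-214211878, Nsdhl at chrX:155817110-155817359 and Fgf10 at chr2:52533689-52533938. Capitals mark AGGTCA on either strand, the short site to which estrogen receptor, PPAR and other nuclear receptors bind.
Plin1: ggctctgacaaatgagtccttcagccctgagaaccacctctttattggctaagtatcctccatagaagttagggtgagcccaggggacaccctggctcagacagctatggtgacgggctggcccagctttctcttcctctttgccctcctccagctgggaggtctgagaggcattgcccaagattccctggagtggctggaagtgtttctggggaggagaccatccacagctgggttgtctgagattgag
Plaat3: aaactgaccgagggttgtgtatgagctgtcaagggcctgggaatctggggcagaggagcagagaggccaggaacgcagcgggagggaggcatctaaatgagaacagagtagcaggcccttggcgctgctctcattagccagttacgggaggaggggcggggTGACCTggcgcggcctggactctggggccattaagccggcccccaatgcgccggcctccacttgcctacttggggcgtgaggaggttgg
Nsdhl: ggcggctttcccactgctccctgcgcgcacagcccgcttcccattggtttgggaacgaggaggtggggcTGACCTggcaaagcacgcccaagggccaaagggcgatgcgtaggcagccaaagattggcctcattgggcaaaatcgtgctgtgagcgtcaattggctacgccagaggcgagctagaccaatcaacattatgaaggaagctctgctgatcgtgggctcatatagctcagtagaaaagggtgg
Fgf10: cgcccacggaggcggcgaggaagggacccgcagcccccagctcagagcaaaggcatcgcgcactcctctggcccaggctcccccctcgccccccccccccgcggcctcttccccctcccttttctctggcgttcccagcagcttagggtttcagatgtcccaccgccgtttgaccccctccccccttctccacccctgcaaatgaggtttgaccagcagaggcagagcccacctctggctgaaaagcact
The short site begins 89 bases before the start of Plaat3 and 181 before that of Nsdhl, on the opposite strand in both. It occurs in 3 of 27 matched promoters of named genes past the threshold without replicate 4 (11.1%), Sts being the other, against 13.7% of all 27457 promoters. The full estrogen response element, GGTCA and TGACC with NNN between them (0.0219% of all promoters), and the PPAR direct repeat, AGGTCA and AGGTCA with N between them (0.0546%), were in 0 of the 27 on either strand. The repeat holds the short site and is counted under both. None of the 3 motifs was in the 12 white adipocyte promoters that matched. These counts describe letters in a short window and say nothing of where a receptor binds.

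Genes of fatty acid and triglyceride synthesis were lower too, most of all in replicates 5 and 6. Of 20 members, 18 were lower with all arrays (median -0.74). None passed, 16 were lower at an unadjusted p under 0.05, against 6.12% of all probe sets, and 11 did not overlap, against 6.58%. Without replicate 4 the median was -0.93 and 3 of 20 fell, against 0.58% of all probe sets: Agpat2 (-1.17), Dgat1 (-0.61) and Dgat2 (-1.06), which add fatty acids to the glycerol backbone. Dgat2 was 0.90, 0.54 and 0.59 in the controls and 0.09, -0.13 and -0.64 at 0.1, all 3 below every control (limma adjusted p = 0.0418 without replicate 4). Fasn, the fatty acid synthase itself, was 0.23, 0.17 and 0.44 against -0.21, -1.32 and -0.98, and did not pass (-1.43 ± 0.37 without replicate 4, limma adjusted p = 0.0897). Elovl6 (-1.91), Me1 (-1.55), Acaca (-1.18) and Acly (-1.08), which lengthen or supply fatty acids, did not pass either, each being lowest in replicate 5. Without any single control, or without replicate 6, none of the 3 calls was left.

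Pnpla3 and Angptl8 were among the largest falls without replicate 4. Pnpla3, a fat droplet protein induced by feeding, was 0.64, 0.55 and 0.84 in the controls, 0.47 in replicate 4, and -1.69 and -1.26 in replicates 5 and 6. Angptl8, a secreted inhibitor of lipoprotein lipase, was 0.92, 0.73 and 1.05 against 0.26, -1.29 and -1.21. Replicate 4 lay near the controls in Pnpla3 and between the groups in Angptl8. Each fell by 2.15 on the log2 scale (4.44-fold; limma adjusted p = 0.0433 and 0.0210), against -1.50 ± 0.51 and -1.65 ± 0.39 with all arrays. Acss2, which makes acetyl-CoA from acetate (-1.33), Pc, pyruvate carboxylase (-1.32), Pygl, a glycogen phosphorylase (-1.28), and Agt, the precursor of angiotensin (-1.26), fell as well. Control replicate 1, the array with high liver genes, had the highest control value in Pc (0.57, against 0.13 and 0.42) and Pygl (0.61, against 0.27 and 0.52), and lay within the range of the other controls in Pnpla3, Angptl8, Acss2 and Agt. All 6 lost the call with a hepatocyte covariate, without the arrays of high hepatocyte markers, and without control replicate 1. They lost it as well without replicate 5 or 6, with the compared groups alone and with the female arrays alone. Pnpla3, Pc, Pygl and Agt also lost it without control replicate 2 or 3 and with quantile normalization.

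Of 17 cholesterol genes, 15 were lower with all arrays (median -0.15, none passing), and without replicate 4 the median was -0.21 and 3 of 17 fell, against 0.58% of all probe sets: Insig1 (-1.13), which restrains sterol synthesis, and the enzymes Nsdhl (-0.84) and Pmvk (-0.33). Insig1 was 0.40, 0.47 and 0.52 in the controls, 0.26 in replicate 4, and -0.65 and -0.68 in replicates 5 and 6, all below the controls. Leaving out any 1 of the remaining 5 arrays left no call on this list. On the list of insulin, leptin and adrenergic signalling, 2 of 14 fell without replicate 4 (median -0.47), against 0.58% of all probe sets. These were Adrb3, which is on the fat cell list too, and Adora1, an adenosine receptor that slows fat breakdown (-0.82). None of 17 fatty acid oxidation genes passed in limma, with medians of -0.06 and -0.21 with and without replicate 4, and 2 and 6 were lower at an unadjusted p under 0.05, against 6.12% and 6.29% of all probe sets. None of 12 brown fat genes passed in limma either, and their median turned from 0.17 with all arrays to -0.10 without replicate 4. In each, 2 were lower at an unadjusted p under 0.05, against 6.12% and 6.29% of all probe sets. With all arrays 1 was higher at that p, against 3.81% of all probe sets.

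No estrogen receptor target on the list passed at this dose. None of 25 measured members passed in limma with or without replicate 4, the medians were -0.01 and -0.03, and 2 and 5 had an unadjusted p under 0.05, against 9.93% and 10.6% of all probe sets. Esr1, the receptor itself, was 0.49, 0.24 and 0.01 in the controls and -0.09, 0.26 and 0.09 at 0.1 (-0.16 ± 0.18). Pgr, the progesterone receptor, was -1.48, 0.17 and -0.95 against -0.33, -0.68 and 0.45 (0.57 ± 0.32). Both overlapped between the groups. Areg, amphiregulin, was 0.11, -0.49 and -0.39 in the controls, -1.30 in replicate 4, and 0.87 and 0.57 in replicates 5 and 6. Replicate 4 was thus the lowest and the other 2 the highest of the 6 arrays, with a difference of 0.30 ± 0.44 with it and 0.97 ± 0.36 without it (95% interval 0.21 to 1.74; limma adjusted p = 0.297).

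Tnfsf11, the cytokine RANKL that relays progesterone signals, split the same way, though it was picked out here after its values were seen. It was 0.10, 0.08 and 0.34 in the controls, -2.13 in replicate 4, and 1.47 and 1.73 in replicates 5 and 6 (without replicate 4, 1.43 ± 0.46, limma adjusted p = 0.195). Greb1, an estrogen target, was -0.64, 1.04 and -0.56 against -0.02, -1.16 and -0.81, with overlap, and its other probe set had the opposite sign. The EGF family list (12 members, medians 0.11 and 0.05) had no call in limma, and 0 and 2 members had an unadjusted p under 0.05, against 9.93% and 10.6% of all probe sets. Among 15 hormone receptors and steroid enzymes, none passed with all arrays, and 2 fell without replicate 4, against 0.58% of all probe sets. They were Thrb, a thyroid hormone receptor (-0.57, with 3 of its 4 probe sets of that sign), and Sts, which frees steroids from sulfate (-0.56).

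The mean of the luminal epithelial genes was higher in replicates 5 and 6 than in the controls, by little in replicate 6, and lower in replicate 4. The mean of 22 luminal genes was -0.08, -0.33 and -0.22 in the controls, -0.64 in replicate 4, 0.43 in replicate 5 and 0.01 in replicate 6. Their median difference was 0.11 with all arrays and 0.39 without replicate 4. No member had 3 arrays clear of the controls, against 4.93% of all probe sets above them and 6.58% below. With and without replicate 4, 0 and 4 members were higher at an unadjusted p under 0.05 in limma, against 3.81% and 4.3% of all probe sets. A single one rose without replicate 4, against 0.0773% of all probe sets. It was Prom1, a surface protein of luminal cells, at 0.01, -0.58 and -0.80 in the controls and -1.05, 0.93 and 0.45 at 0.1. Its difference was 0.57 ± 0.32 with replicate 4 and 1.15 ± 0.20 without it (limma adjusted p = 0.0210). The keratins Krt8 (0.52), Krt18 (0.34) and Krt19 (0.52) did not pass, nor did any of 14 basal and myoepithelial genes in limma, whose medians were 0.05 and 0.29, with 1 and 4 at an unadjusted p under 0.05, against 9.93% and 10.6% of all probe sets.

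Milk protein genes were not shown to differ from dose 0. None of 19 passed in limma, 1 had an unadjusted p under 0.05 with and without replicate 4, against 9.93% and 10.6% of all probe sets, and the medians were -0.05 and 0.02. Csn2, β-casein, was -0.30, -1.44 and 0.50 in the controls and -4.06, -1.69 and 0.21 at 0.1, with replicate 4 the lowest and replicate 6 among the controls (-1.43 ± 0.77 with replicate 4, -0.32 ± 0.65 without it). Wap, the whey acidic protein, was -1.68, -1.85 and -1.15 against -2.65, -1.77 and 0.22, spanning the controls on both sides.

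Of 35 cell cycle genes, 34 were higher at 0.1 both with and without replicate 4, with medians of 0.31 and 0.33. None passed in limma, and 6 and 8 were higher at an unadjusted p under 0.05, against 3.81% and 4.3% of all probe sets. Hmmr, a spindle protein, was -0.01, -0.33 and -0.80 in the controls and 0.37, -0.27 and 0.42 at 0.1. Replicate 5 lay inside the range of the controls there, and in the list mean the controls spanned -0.35 to -0.01 and the arrays at 0.1 spanned -0.13 to 0.41. With array weights the median was 0.09 and 27 of 35 were higher.

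Few stromal genes passed. Of 30 fibroblast and matrix genes none passed with all arrays (median 0.02) and 1 fell without replicate 4, against 0.58% of all probe sets. It was Col15a1, a collagen of basement membranes (-0.79). Outside the list, Smoc2 (1.23 and 0.87 in 2 of its 3 probe sets, all 3 of 1 sign), Sfrp2, a secreted Wnt inhibitor (1.22), Fibin, a secreted protein (1.19), Mmp16, a membrane metalloprotease (0.88), and Bdnf, a nerve growth factor (0.84), rose without replicate 4. Sfrp2 was -0.18, -0.37 and -0.31 in the controls and -0.79, 1.31 and 0.55 at 0.1, with replicate 4 below the controls and the other 2 above. Bdnf was -0.08, -0.06 and -0.05 against 0.15, 1.08 and 0.47, all 3 above.

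Fgf10, a growth factor made in the mesenchyme and needed for the mammary bud, passed against dose 0 without replicate 4 and in both tests between doses described further on. All of these tests share arrays at 0.1, so they are not independent of each other. Fgf10 was 0.00, 0.16 and -0.30 in the controls and -0.50, -1.28 and -1.18 at 0.1, every array below every control. The difference from dose 0 was -0.94 ± 0.19 with all arrays (limma adjusted p = 0.0709) and -1.18 ± 0.17 without replicate 4 (limma adjusted p = 0.0100). Along with Plin1 and C6h14orf180 (-1.13), it lost the call in the fewest of the settings tried: with the 2 groups alone, with the female arrays alone, without the arrays of high hepatocyte markers and without replicate 6.

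Immune and other cell lists changed sign with replicate 4 or had no call. The 12 B cell genes had a median of -0.54 with replicate 4 and 0.31 without it, and the 19 T and NK cell genes -0.44 and 0.41. Oxidative phosphorylation went from 0.11, with 23 of 28 higher, to -0.13, with 26 of 28 lower. Its only member past the threshold without replicate 4 was Sdha, a subunit of succinate dehydrogenase (-0.38), where 0.58% of all probe sets fell. Skeletal muscle genes had medians of 2.13 and 1.40, and hepatocyte genes -1.19 and -1.31, with no call in limma and 7 higher and 7 lower members at an unadjusted p under 0.05 with all arrays, against 3.81% and 6.12% of all probe sets. Macrophage (18), endothelial (18), mast cell and eosinophil (19), neutrophil (8), keratinocyte (19), Schwann cell (14), red blood cell (6), immediate early (18), clock (16), glucocorticoid and FOXO (17) and interferon (19) lists had no call in limma either, and 16 and 18 of their 172 members had an unadjusted p under 0.05 with and without replicate 4, against 9.93% and 10.6% of all probe sets. Of the 18 endothelial genes, 2 and 6 were lower at that p, against 6.12% and 6.29%. The medians of these 11 lists, from macrophage to interferon, ran from -0.18 to 0.05 with all arrays and from -0.25 to 0.15 without replicate 4.

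**Figure D3:**
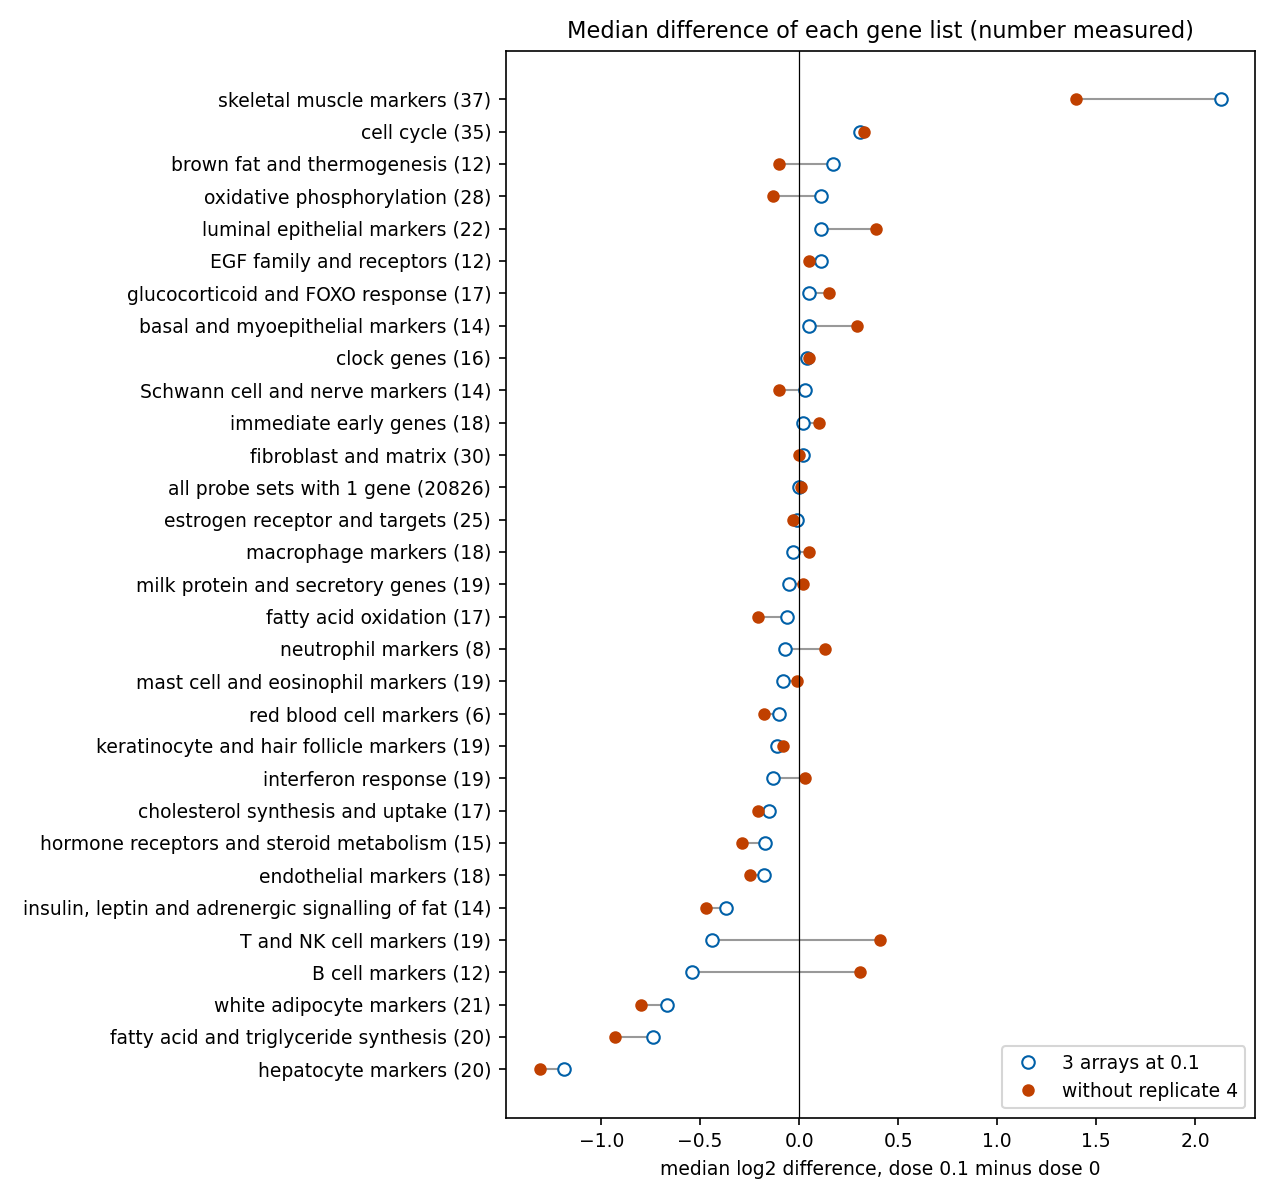
Median log2 difference between dose 0.1 and dose 0 (x axis) for 30 gene lists and for all probe sets with 1 gene (y axis, number of members in brackets); open blue circles use all 3 arrays at 0.1 and filled orange circles leave out replicate 4. White adipocyte and triglyceride synthesis lists stay below 0 in both, at -0.67 and -0.80 and at -0.74 and -0.93, while the B cell and T cell lists cross 0.

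Whether males at 0.1 differ from their own controls in another way was tested as the male minus the female difference. In limma 0 probe sets (0%) passed with all arrays, the smallest adjusted p was 0.621 and 2266 (7.3%) had an unadjusted p under 0.05. Without replicate 4, 0 (0%) passed in limma and 1032 (3.32%) had an unadjusted p under 0.05. The male comparison itself had 0 calls (0%) in limma, 3703 (11.9%) with an unadjusted p under 0.05 and a smallest adjusted p of 0.102. Side by side, the median of the white adipocyte list was -0.67 in females (-0.80 without replicate 4) and -0.44 in males, with 21 of 21 lower in each. That of the luminal list was 0.11 in females (0.39 without replicate 4) and 0.71 in males. The male arrays were uneven too. Their muscle means were 1.54, -0.09 and -0.42 in the controls and 1.00, -2.71 and -2.26 at 0.1. Hepatocyte means were -0.02, 1.39 and 2.46 against -0.22, -0.03 and -0.21. The part of these arrays in the male medians was not tested. For Plin1 the differences were -0.92 ± 0.17 and -0.43 ± 0.17, for Fgf10 -0.94 ± 0.19 and -0.36 ± 0.19, and for Adamts8 1.18 ± 0.18 and 0.00 ± 0.18. For each of these 3 the interaction had a limma adjusted p of 0.621, so a sex difference was not shown.

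Against the dose of 1 µg/kg/day, few genes stood apart. In limma 4 of 31042 probe sets (0.0129%) passed, 1 higher at 0.1 (0.00322%) and 3 lower (0.00966%), and 3 of the 4 have a gene. Fgf10 was -0.50, -1.28 and -1.18 at 0.1 and 0.37, 0.19 and -0.07 at 1, lower in all 3 arrays by 1.15 ± 0.19 (difference -1.15, limma adjusted p = 0.0495). Sned1, a matrix protein, was -0.97, -0.45 and -1.24 against 0.31, 0.70 and 0.04 (difference -1.24 ± 0.19). Neto2, a partner subunit of kainate receptors, was 0.56, 0.43 and 0.59 against -0.05, -0.37 and 0.02 (difference 0.67 ± 0.11). None of the 3 genes overlapped between these doses, and all had a limma adjusted p of 0.0495. Without replicate 4, 15 probe sets (0.0483%) passed, Fgf10 among them (-1.39, limma adjusted p = 0.00267), while Neto2 (0.0580) and Sned1 (0.0549) did not. Leaving out replicate 5 gave 2, replicate 6 or replicate 7 or 8 at dose 1 gave 0, and replicate 9 gave 18.

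Across the doses, which share the dose 0 controls when each is set against 0, fat cell genes had no simple order. The median difference from dose 0 of the white adipocyte list was -0.67 at 0.1, -0.27 at 1 and -0.77 at 10. Without replicate 4 the median at 0.1 was -0.80, so which of 0.1 and 10 was lower depended on that array. The gene values that follow include it. For Plin1 it was -0.92, -0.44 and -0.77, for Fabp4 -0.48, -0.20 and -0.51, and for Adrb3 -1.11, -0.74 and -1.84. In the direct test against dose 1 none of the 21 passed in limma, and the median was -0.40 (-0.56 without replicate 4). At an unadjusted p under 0.05 there were 13 (18 without replicate 4), against 7.15% and 11.6% of all probe sets. In the direct test against dose 10 none passed either, the median was 0.04 and 3 had an unadjusted p under 0.05, in both directions, against 10.9% of all probe sets. Without replicate 4 that median turned to -0.04, with 9 members higher and 12 lower at 0.1, and again none passed. Dose 1 had 0 calls (0%) against dose 0 in limma and 847 (2.73%) with an unadjusted p under 0.05.

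The dose of 10 µg/kg/day differed from 0.1 in milk protein genes. In limma 293 probe sets (0.944%) passed, 53 higher at 0.1 (0.171%) and 240 lower (0.773%). On the milk protein list 11 of 19 were lower at 0.1 than at 10 (median -1.15), and 6 of 19 without replicate 4 (median -1.09), where 122 probe sets passed (0.393%), 92 of them lower (0.296%). Wap was -2.65, -1.77 and 0.22 at 0.1 and 3.17, 2.82 and 2.23 at 10, with no overlap (-4.14 ± 0.67, limma adjusted p = 0.00577, and -3.51 without replicate 4, limma adjusted p = 0.0326). Csn3, κ-casein (-2.56, and -1.96 without replicate 4), and Folr1, a folate receptor (-0.55, and -0.59), passed both ways, whereas Csn2 passed with replicate 4 (-3.87) and not without it (limma adjusted p = 0.0772).

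On the list of estrogen receptor and targets 1 of 25 passed, Greb1, lower at 0.1 with and without replicate 4, and the median was -0.08 and -0.10. Over all probe sets 0.773% and 0.296% passed as lower. With all arrays 7 members were lower and 0 higher at an unadjusted p under 0.05, against 10.9% of all probe sets in either direction. Without replicate 4, 4 were lower and 4 higher at that p, against 3299 of 31042 probe sets in either direction. Greb1 was -0.02, -1.16 and -0.81 at 0.1 and 1.19, 1.67 and 1.68 at 10, again apart, with a difference of -2.17 ± 0.37 (limma adjusted p = 0.00699; 0.0107 without replicate 4). Deptor, an inhibitor of the mTOR kinase, had a difference of -1.17 ± 0.18, and Fgf10, at 0.03, 0.10 and 0.33 in the arrays at 10, one of -1.14 ± 0.19. Both passed with and without replicate 4. Egfr, the EGF receptor (-0.79), and Muc1, a luminal surface mucin (-1.59), passed with all arrays and not without replicate 4. The total of 293 became 122 without replicate 4, 543 without replicate 5, and 134 and 106 without replicates 10 and 11 at dose 10. With these 2 groups alone it was 0.

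**Figure D4:**
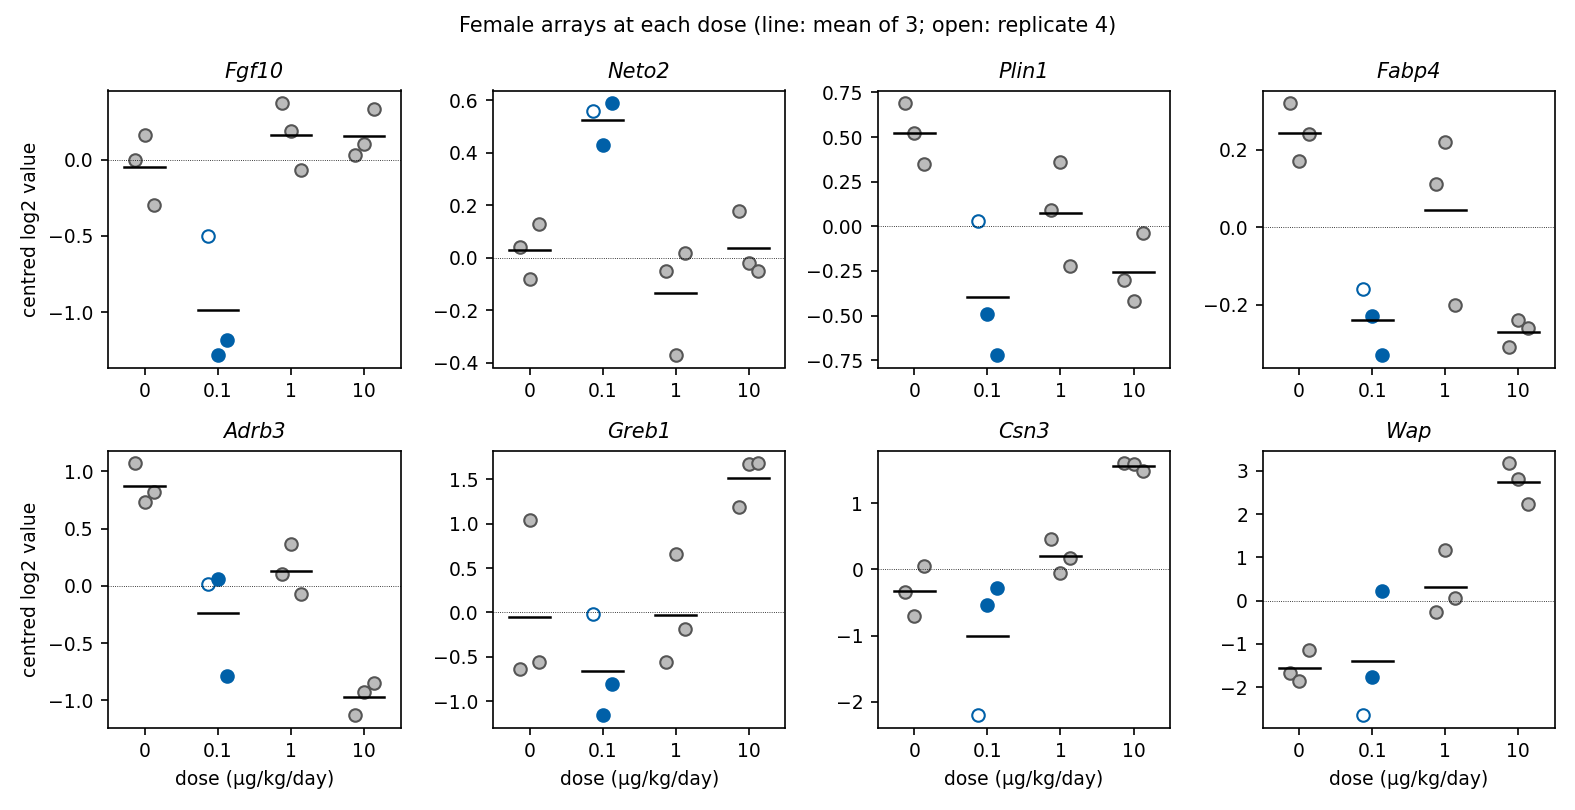
Centred log2 value (y axis) of 8 genes in the 12 female arrays by dose in µg/kg/day (x axis); each point is an array, black lines are means of 3 and the open blue circle is replicate 4 at 0.1. Fgf10 is low and Neto2 high at 0.1, Plin1 and Fabp4 are low at 0.1 and 10, and Greb1, Csn3 and Wap are highest at 10.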

How the data were processed

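The data are a table of signed log values deposited by the authors for 31099 probe sets on Affymetrix arrays, taken here as log2 values, though the log base is not given in the sources used here. The submitters' processing notes name GCOS, with neither a version nor a role. How probe sets were summarized, normalized and centred is not given in the sources used here. The deposited log2 values are centred per probe set within each sex, and were used with no further normalization. After leaving out 57 control probe sets, 31042 were tested, of which 20826 have 1 gene, 436 several and 9780 none in the platform annotation. Genome positions of probe sets are not given, since no build is named for them.

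A model of 8 group means was fitted to all 24 arrays (23 without replicate 4) with lmFit and eBayes (limma 3.58.1, R 4.3.3, 16 and 15 residual degrees of freedom), with Benjamini-Hochberg adjustment over all probe sets and a threshold of 0.05. The fit was run on simulated data with independent errors and, for each probe set, the same SD in every array. That run does not cover arrays of unequal spread such as replicate 4. Errors are SE. Precision is limited by how many arrays there are. For each gene of the 30 lists, the probe set that varied most over the 12 male arrays (largest SD) was taken. Lists are described by counts and medians, with no set test.

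The members, the lists and the rules were chosen with earlier results of these data known. Named genes are the 10 higher and 10 lower with the smallest p among those whose 3 and 3 arrays do not overlap, the 10 largest rises and 10 largest falls past the threshold without replicate 4, up to 4 called members of each list (or 2 with the smallest p), up to 5 each way in the other comparisons, and 12 fixed genes. Further list members were named after their values were seen. Alternatives changed the arrays in the fit, array weights, covariates (muscle or hepatocyte mean), scaling, prior, probe sets and threshold.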

Additional observations from a re-analysis of the deposited data

How the results depend on the processing

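The number of probe sets past the threshold changed with the arrays and settings of the fit. With all arrays, 0 calls at 0.1 against 0 became 1738 with array weights, 2 with a hepatocyte covariate, 1 without the arrays of high hepatocyte markers, 12 with quantile normalization and 60 with equal median absolute deviations. Unadjusted p with a difference of at least 1 gave 78, groups apart by at least 1 gave 71, and leaving out an array 0 to 204. Without replicate 4, the 204 became 0 with the groups alone or the remaining female arrays alone, 498 with a muscle covariate, 25 with a hepatocyte covariate, 1 without the hepatocyte arrays, 345 with equal deviations, 127 by the unadjusted rule and 9 to 163 without a further array. The lower members of the adipocyte (11), triglyceride (3) and cholesterol (3) lists became 0, 0 and 0 with the groups alone, the female arrays alone, the hepatocyte arrays left out or replicate 4 kept, and 1, 0 and 0 with a hepatocyte covariate. Quantile normalization left 1 triglyceride gene, and leaving out an array gave 0 to 7, 0 to 3, and 0.

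Against dose 1 the 4 calls became 0 with the groups alone, the female arrays alone, the hepatocyte arrays left out, quantile normalization or equal deviations, 725 with array weights, 1 and 2 with muscle and hepatocyte covariates, 17 by the unadjusted rule and 0 to 18 without an array. Against dose 10 the 293 became 0 with the groups alone, 42 in females alone, 988 with array weights, 188 without the hepatocyte arrays, 124 with quantile normalization, 175 with equal deviations, 156 by the unadjusted rule and 106 to 543 without an array. The interaction had 0 calls, 4 with array weights, 1 with a hepatocyte covariate, 152 by the unadjusted rule and 0 without any 1 array. Of 44 named probe sets past the threshold without replicate 4, 0 kept it under every setting. Kcnip1 reversed with array weights (0.58, from -0.01). The causes were not tested.

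No paired analysis was possible because the arrays at 0.1 (4 to 6) and at 0 (1 to 3) share no replicate numbers. In the interaction, where males and females share them, the array number as a replicate block gave 0 calls (smallest limma adjusted p 0.0948). Centred values do not show signal over background, so how well dim probe sets were measured is unknown.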
